A study of Homo sapiens with 4 samples.

Results

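H4K20me3 regions were examined in the stretches on either side of the chromosome 7 centromere, which hold a chain of zinc finger genes. A region was a member when its midpoint lay in hg19 at chr7:56500001-58060000, on the short arm, or at chr7:61050001-66000000, on the long arm. The rule selected 1088 of the 57082 regions in the 3 lists of the series. These were 69 of 2836 peaks in proliferating cells, 760 of 35535 peaks in senescent cells and 259 of 18711 regions called different between the states. The rule used position alone and no measured value, but it was set with earlier results of these data known.

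The cells were IMR90, a diploid human lung fibroblast line that stops dividing after many passages. H4K20me3, histone H4 trimethylated at lysine 20, was profiled by chromatin immunoprecipitation and sequencing in proliferating cells at population doubling 32 (PRO, 2 samples) and in cells at population doubling 86 that had reached replicative senescence (RS, 2 samples). All samples came from untreated IMR90 cells grown in low oxygen, and the 2 samples of a group differed in the antibody against the mark (Ab1 or Ab2). Each group has 1 list, the peaks shared by its antibodies, and a DiffBind list holds the regions that differed between the groups. The lists give positions in bases, with no score, read count or direction of change, so PRO and RS were compared without a spread between samples or a test. Read depth was not used here. That a stretch carries no peak therefore means that none was called with both antibodies.

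KRAB zinc finger proteins bind DNA through tandem C2H2 fingers, in which a pair of cysteines and a pair of histidines hold a zinc ion. Many of them recruit TRIM28 and SETDB1 to transposable elements, which leads to H3K9me3, and the KMT5B and KMT5C enzymes can add H4K20me3 at such heterochromatin. The genes themselves lie in clusters that arose by tandem duplication, several of them next to centromeres. Centromeres are built of alpha satellite, a tandem repeat, and other satellites lie in the flanking pericentromeric chromatin.

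Stretches from the regions on which the results turn are shown first, all read from the GRCh37 genome, which has the hg19 coordinates on this chromosome. The first comes from ZNF479 on the short arm, chr7:57187892-57188143 on the minus strand, and shows 3 consecutive fingers in the last coding exon, which lay wholly in RS peaks. Capitals mark the codons of the cysteines and histidines that bind zinc.
ZNF479 fingers: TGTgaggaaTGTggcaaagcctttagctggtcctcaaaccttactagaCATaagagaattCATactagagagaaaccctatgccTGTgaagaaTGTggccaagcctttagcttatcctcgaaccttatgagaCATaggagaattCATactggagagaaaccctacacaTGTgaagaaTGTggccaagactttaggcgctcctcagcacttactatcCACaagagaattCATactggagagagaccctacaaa

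The following stretches show the satellites under the longest RS peak within 1 Mb of the centromere gap on each arm. The short-arm stretch is chr7:57550026-57550175, and capitals mark the motif GGAAT, which was searched on both strands. The long-arm stretch is chr7:61972751-61973050, and capitals mark bases identical to the base 340 positions further on, which were 181 of the 300 bases (60.3%).
Short-arm satellite: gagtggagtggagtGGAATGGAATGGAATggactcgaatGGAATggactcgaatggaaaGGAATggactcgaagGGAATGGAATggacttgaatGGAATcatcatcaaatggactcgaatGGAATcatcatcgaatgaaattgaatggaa
Long-arm satellite: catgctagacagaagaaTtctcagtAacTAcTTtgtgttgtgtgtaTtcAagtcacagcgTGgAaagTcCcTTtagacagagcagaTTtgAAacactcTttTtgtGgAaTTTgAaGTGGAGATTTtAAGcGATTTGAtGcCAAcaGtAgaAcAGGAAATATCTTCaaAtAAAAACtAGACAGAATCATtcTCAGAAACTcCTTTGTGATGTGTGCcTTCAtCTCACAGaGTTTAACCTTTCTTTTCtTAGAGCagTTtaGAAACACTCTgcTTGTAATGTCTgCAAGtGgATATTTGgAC

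The longest PRO peak of each arm lay on a GC-rich tandem array, and a stretch of each is shown because the 2 arrays were near copies of each other. The short-arm stretch is chr7:56880001-56880150, printed on the minus strand, and the long-arm stretch is chr7:63210273-63210422 on the plus strand. Capitals mark the 3 positions at which they differ.
Short-arm array: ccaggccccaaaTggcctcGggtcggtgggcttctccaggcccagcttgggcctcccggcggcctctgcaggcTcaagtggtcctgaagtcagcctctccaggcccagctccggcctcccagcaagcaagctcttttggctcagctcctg
Long-arm array: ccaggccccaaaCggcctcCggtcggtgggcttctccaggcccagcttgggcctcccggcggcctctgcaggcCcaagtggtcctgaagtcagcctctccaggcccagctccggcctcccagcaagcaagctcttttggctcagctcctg

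The last pair are the 250 bases before the annotated starts of ZNF716 on the short arm (chr7:57509633-57509882, plus strand) and ZNF722 on the long arm (chr7:63458977-63459226, plus strand). Both starts lay in RS peaks, and the stretches were 85.6% identical although the genes lie on opposite sides of the centromere. They were the most alike pair among the 6 genes with a start in an RS peak. The other pairs of those genes were 42.8% to 58.4% identical. Capitals mark CpG dinucleotides.
ZNF716 promoter: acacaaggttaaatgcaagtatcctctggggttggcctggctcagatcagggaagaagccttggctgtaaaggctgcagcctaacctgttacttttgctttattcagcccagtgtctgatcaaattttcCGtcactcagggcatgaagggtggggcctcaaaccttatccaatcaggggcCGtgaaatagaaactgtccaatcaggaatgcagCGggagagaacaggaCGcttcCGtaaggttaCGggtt
ZNF722 promoter: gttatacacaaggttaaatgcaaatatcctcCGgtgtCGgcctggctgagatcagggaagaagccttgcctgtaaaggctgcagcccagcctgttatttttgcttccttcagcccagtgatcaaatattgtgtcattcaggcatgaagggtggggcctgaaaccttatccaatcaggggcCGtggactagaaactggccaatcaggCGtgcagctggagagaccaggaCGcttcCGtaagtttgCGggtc

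RS peaks covered 1009 kb, or 16% of the 6.3 Mb of sequenced bases in the windows, and PRO peaks covered 98.67 kb, or 1.57%. DiffBind regions covered 625.9 kb (9.93%). The RS list thus held 11 times as many peaks as the PRO list and covered 10.2 times as many bases here. Over the whole genome these ratios were 12.6 and 11.1. Density set the windows apart from the genome more than the ratio between the states did. Covered shares in the windows exceeded those in the genome without the windows 13.4-fold for PRO, 12.3-fold for RS and 8.34-fold for DiffBind. On the rest of chromosome 7, PRO peaks covered 0.0507% of sequenced bases, RS peaks 1.15% and DiffBind regions 1.14%. A pair of like stretches was set beside the windows as single stretches, with no test. The chromosome 19 stretch at 20 to 24 Mb, also rich in zinc finger genes, was covered to 23% by RS peaks and to 0.685% by PRO peaks, a 33.7-fold ratio. The pericentromeric chromosome 10 stretch at 38 to 44 Mb, with 2.7 Mb sequenced, was covered to 8.38% and 2.9%, a 2.89-fold ratio. Its longest PRO peak had 42401 bases out of 78.23 kb covered, so that PRO share and ratio depend heavily on a single peak.

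RS peaks had a median length of 1001 bases and a mean of 1328 ± 1578 (SD, n = 760 peaks). PRO peaks had a median of 601 bases and a mean of 1430 ± 3010 (SD, n = 69 peaks), since 2 PRO peaks were longer than any RS peak of the windows. DiffBind regions had a median of 1801 bases and a mean of 2416 ± 2606 (SD, n = 259 regions). These SDs describe the members of a list and are no error of a group.

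The mark was not spread evenly along the windows. The short arm was covered more densely than the long arm in all 3 lists, at 2.68% against 1.2% for PRO, 22.3% against 14.0% for RS and 11.7% against 9.36% for DiffBind. The RS share on the long arm fell steeply near 64 Mb. From the gap to 64 Mb it was 22.3%, close to that of the short arm, and from 64 to 66 Mb it was 2.55%. The DiffBind share fell from 14.3% to 2.63% and the PRO share from 1.82% to 0.36% at the same place. The last 1 Mb, which holds 7 coding genes and no zinc finger gene, was covered to 0.761% by RS peaks, less than the 1.15% on the rest of the chromosome. The steps from 2.25 to 2.75 Mb beyond the gap on the long arm, where the zinc finger genes begin, were the densest full steps of 250 kb, with 39.0% and 38.9% in RS peaks.

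**Figure D1:**
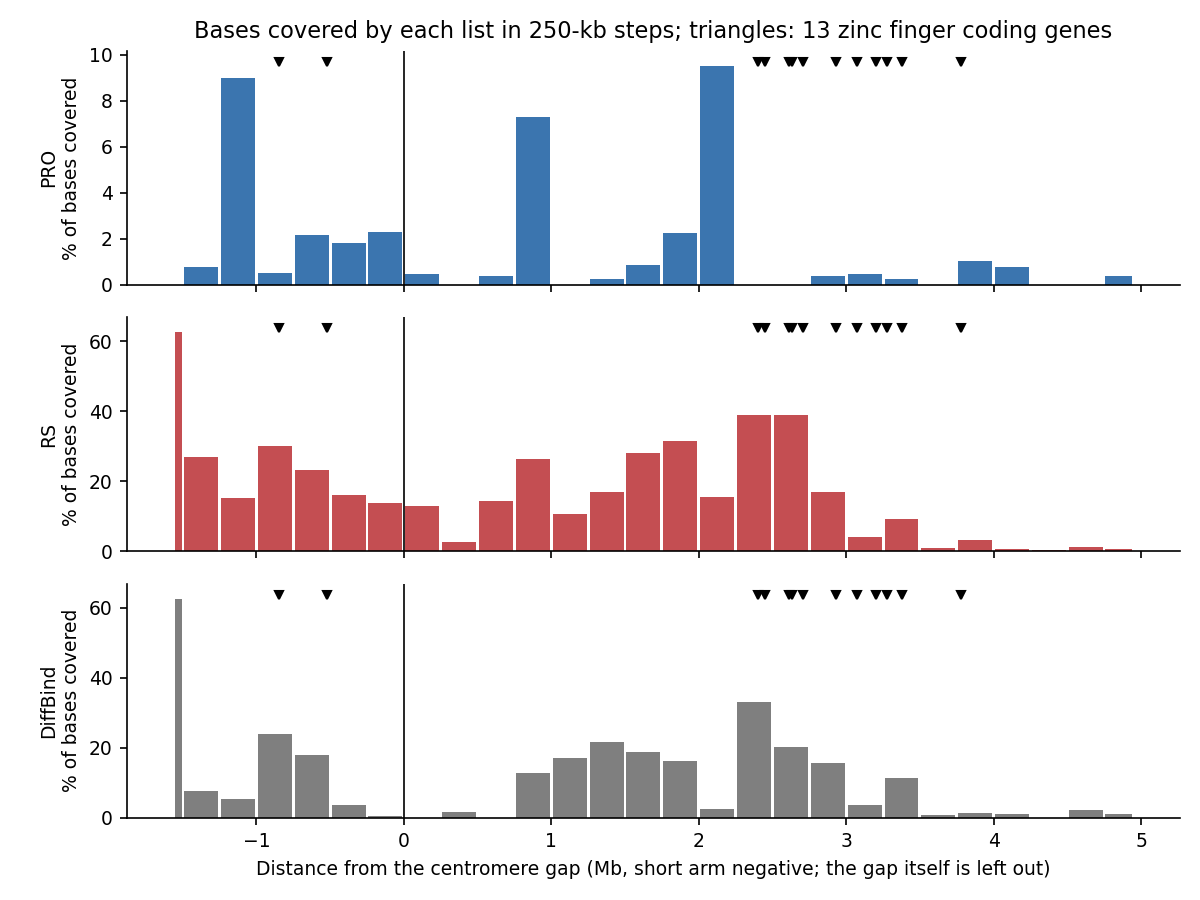
Percent of sequenced bases covered by PRO peaks, RS peaks and DiffBind regions (top to bottom, with different vertical scales) in 250-kb steps against the distance from the centromere gap in Mb, with the short arm at negative values and the gap itself left out. Triangles mark the 13 zinc finger coding genes. PRO coverage has 3 tall steps of 7.31% to 9.52%, and the other steps reach 2.32% at most. RS coverage is broad up to about 3 Mb beyond the gap, and DiffBind coverage is at or near 0 next to the gap. The leftmost bar covers only 54.3 kb.

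Next to the gap the 3 lists differed. In the 0.75 Mb of the long arm nearest the gap, RS peaks covered 10.9% of sequenced bases, yet 1 of these 63 RS peaks overlapped a DiffBind region (1.59%). Beyond that distance 213 of 450 long-arm RS peaks did (47.3%). The limit of 0.75 Mb lies where long-arm DiffBind coverage rises, from 0.0% in the step before it to 12.9% in the step after. The size of this contrast therefore depends on where the limit was set. On the short arm 26 of 90 RS peaks overlapped a DiffBind region within 0.75 Mb of the gap (28.9%) and 71 of 157 further out (45.2%). The long-arm stretch beside the gap held 5 PRO peaks, which covered 0.334% of it. Reads from near-identical satellite copies can be placed at any of them, and alpha satellite of the long arm within 0.5 Mb of the gap had a repeated 75-base sequence at 75.1% of its bases. The part of this in the low DiffBind coverage was not tested.

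Of the 13 zinc finger coding genes in the windows, 11 overlapped an RS peak (84.6%), 11 a DiffBind region (84.6%) and 2 a PRO peak (15.4%). The background over 20163 coding genes was 21.0% for RS, 18.3% for DiffBind and 3.97% for PRO. Zinc finger genes outside the windows are the closer comparison, and 64% of those 553 genes overlapped an RS peak, 55.2% a DiffBind region and 30.2% a PRO peak. In the chromosome 19 stretch all 31 zinc finger genes overlapped an RS peak, whereas 9 of the 26 other zinc finger genes of chromosome 7 did (34.6%). RS peaks covered a median of 27.1% of the body in the 13 genes and 10.5% in zinc finger genes elsewhere. The median was 29.7% in the 31 genes of the chromosome 19 stretch, so a high covered share was not particular to the windows. It was 4.47% in the 6 zinc finger genes of the chromosome 10 stretch and 0.0% in the 26 others of chromosome 7.

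The genes are described in order along the chromosome, and all were taken as zinc finger genes by their symbols. On the short arm, ZNF479 was covered to 60.5% by RS peaks and to 71.4% by DiffBind regions, the highest shares of the 13. ZNF716, nearer the gap, had 33.9% and 29%. On the long arm, RS peaks covered 18.6% of the body of ZNF722 and DiffBind regions 28%, and ZNF727 had 27.1% and 32.1%. ZNF735 had 36.9% in RS peaks and 29.7% in DiffBind regions, and its neighbour ZNF679 had 48.8% and 19.8%. All 6 genes from ZNF479 to ZNF679 thus carried the mark in RS.

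Further out the shares were lower, with exceptions. ZNF736 was covered to 30.1% by RS peaks, to 33.4% by DiffBind regions and to 2.04% by a PRO peak. ZNF680 had 14.4% in RS peaks and 16.7% in DiffBind regions, and ZNF107, the gene with the most fingers of the set (16), had 17.2% and 18.0%, with 2.64% in PRO peaks. ZNF273 had 14.2% and 20.1%. ZNF117 had 30.4% and 39.5%, but it overlaps ERV3-1 on the same strand, so regions there count for both genes. ZNF138 and ZNF92 overlapped no region of any list. ZNF138 lies between ZNF107 and ZNF273, so the chain of genes with peaks was broken there, and ZNF92 is the outermost zinc finger gene of the windows.

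**Figure D2:**
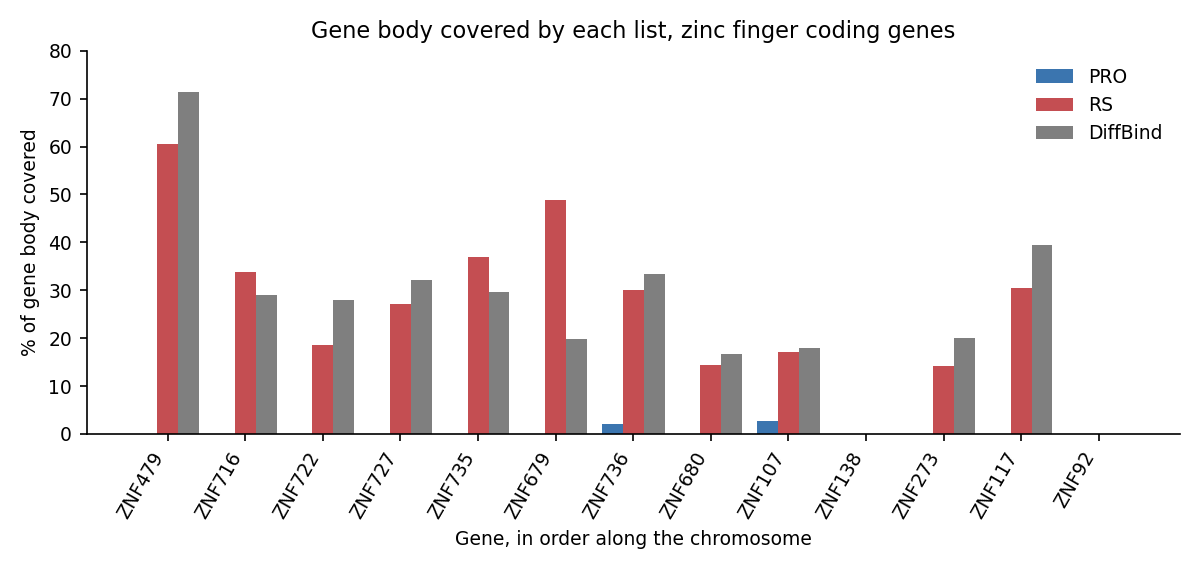
Percent of the gene body covered by PRO peaks, RS peaks and DiffBind regions for the 13 zinc finger coding genes in order along the chromosome; ZNF479 and ZNF716 are on the short arm. RS and DiffBind bars stand at 14.2% or more in 11 genes and are absent at ZNF138 and ZNF92, and PRO bars reach 2.64% at most.

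The mark lay in different parts of these genes. The annotated start site was inside an RS peak in the 6 genes from ZNF479 to ZNF679, where RS peaks covered 68.0% to 100.0% of the 2000 bases on either side of the start. In the 7 genes from ZNF736 to ZNF92 no RS peak touched that stretch, although 5 of them had RS peaks in their introns. The order along the chromosome therefore split the genes cleanly by their start sites. The start lay in a DiffBind region in 4 genes and in a PRO peak in 0. The 250 bases before the start held 0 to 8 CpG dinucleotides in the 6 genes with a marked start and 3 to 18 in the other 7. ZNF716 and ZNF722, shown above, had 6 and 7.

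The last coding exon, which held all 119 fingers of the 13 genes, was mostly outside the peaks. RS peaks touched it in 2 genes, ZNF479, where they covered all of it, and ZNF735, where they covered 61.7%. These 2 genes accounted for the 16 fingers that lay wholly in RS peaks (13.4%). DiffBind regions touched it in 3 genes, with the whole exon of ZNF736 in addition, and held 26 fingers (21.8%), and PRO peaks held 0. Introns of the 11 genes with an RS peak in the body had a median of 24.2% in RS peaks. Of zinc finger genes with an RS peak in the body, RS peaks touched the last coding exon in 2 of 11 in the windows (18.2%) and in 261 of 354 outside them (73.7%). In the chromosome 19 stretch it was 17 of 31 (54.8%), but introns there were also covered more than the exon, with medians of 31.4% and 1.47%. RS peaks covered over 50% of the exon in 5 of those 31 genes (16.1%), close to the 2 of 13 (15.4%) in the windows. Among all 354 genes outside the windows, the chromosome 19 genes included, the order of the medians was the other way, 67.5% of the exon and 28.6% of introns. The start site was in an RS peak in 6 of the 11 genes (54.5%) and in 67 of the 354 (18.9%). These are counts of genes in single lists, with no test of the difference. Repeated 75-base sequences took up a median of 0.705% of the finger-coding stretches, with 51.7% in ZNF479 as the highest value, so the exons without peaks were mostly of unique sequence.

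**Figure D3:**
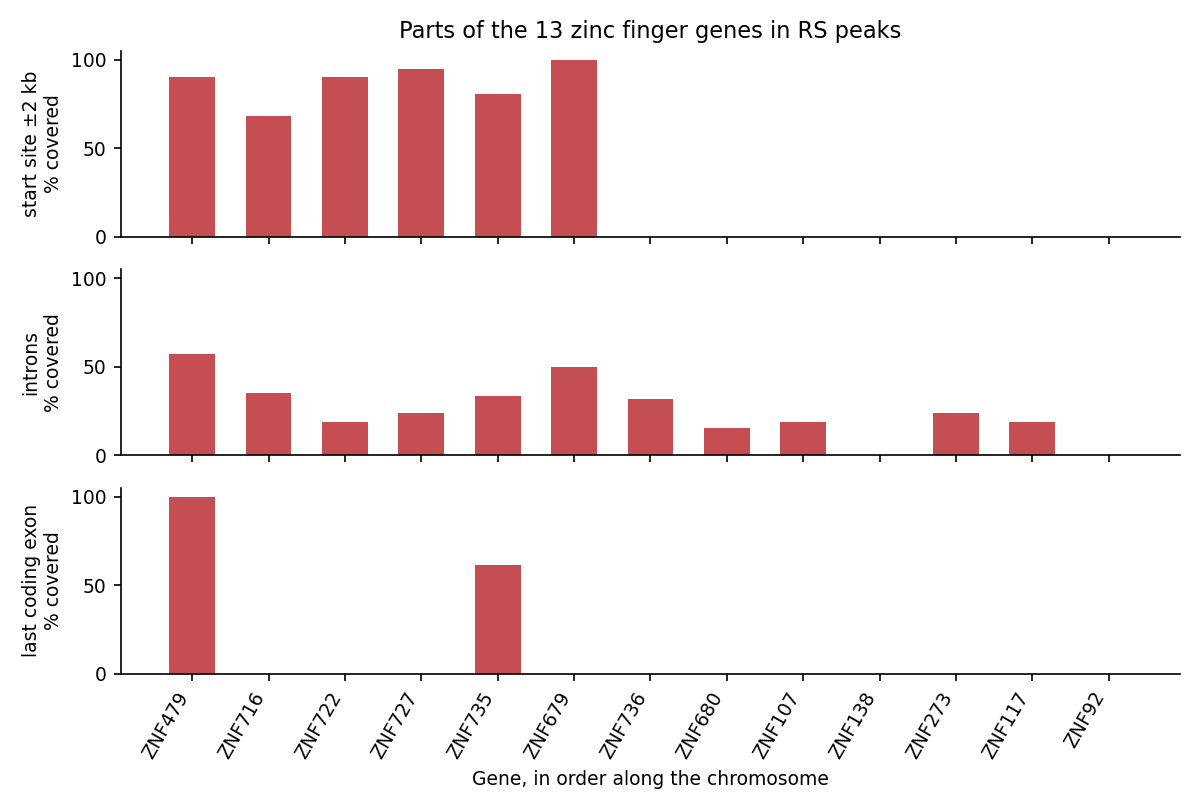
Percent covered by RS peaks in 3 parts of the 13 zinc finger coding genes in order along the chromosome, namely 2 kb on either side of the start site (top), the introns (middle) and the last coding exon (bottom). The start is covered in the first 6 genes alone, introns in 11 genes, and the last coding exon in ZNF479 and ZNF735.

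Of the other 8 coding genes of the windows, 3 overlapped an RS peak (37.5%), against 21.0% of all coding genes. Only 1 had at least 10% of its body in RS peaks. ERV3-1, which encodes the envelope protein of an endogenous retrovirus, was covered to 48.0% by a single RS peak and to 56.6% by a DiffBind region, and its last coding exon lay wholly in both. AC104057.1, a gene model of 1.2 kb, had 83.4% of its body in a PRO peak and none in RS peaks. The remaining 6 genes had under 10% of the body in any list, among them GUSB, which encodes a lysosomal glucuronidase, and ASL, a urea cycle enzyme, at 0 in all 3 lists. Of 53 long non-coding RNA genes, 36 overlapped an RS peak (67.9%), against 16.7% of such genes over the genome. Of the pseudogenes, 3 of 4 of the zinc finger kind did, against 39.8% over the genome, and 73 of 173 others (42.2%), against 7.75%. The non-coding genes with the most RS bases were ENSG00000285544 with 29.3 kb, which overlaps ZNF727, then ENSG00000290564 with 16.8 kb and no DiffBind region, and ENSG00000279072 with 14.2 kb, which lies under the longest short-arm PRO peak. Most of the covered sequence lay outside the zinc finger genes after which the stretch is named. Stretches between genes made up 66.9% of the windows and held 66% of RS bases, 62.6% of DiffBind bases and 74.3% of PRO bases. Zinc finger coding genes made up 7.21% of the windows and held 10.5%, 17.4% and 2.23%.

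Of the 69 PRO peaks, 45 overlapped an RS peak (65.2%, Wilson 95% interval 53.4 to 75.4, which covers counting error only), against 54.8% over the genome, and 22 overlapped neither other list. The share was 20.3% when the overlap had to cover 50% of both regions. It was 25% when peaks with repeated sequence were left out of both lists, which kept 12 PRO peaks and 243 RS peaks. A PRO peak over an RS peak that was left out then counted as without overlap. The shared bases came to 63.3 kb, which were 64.1% of PRO bases and 6.27% of RS bases. Of the 760 RS peaks, 42 overlapped a PRO peak (5.53%), 311 a DiffBind region (40.9%) and 413 neither (54.3%). Each of those 311 RS peaks lay wholly inside a DiffBind region. The authors computed DiffBind regions from the peaks of the same groups. This containment and the overlap shares that follow are therefore not independent of the RS and PRO lists. Of the 259 DiffBind regions, 233 overlapped an RS peak (90.0%, Wilson 95% interval 85.7 to 93.1), against 73.4% over the genome, and 8 overlapped a PRO peak. DiffBind regions with no peak of either list were 24 here (9.27%) against 26.1% over the genome.

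Sequence composition differed between the lists in covered bases and less per region. The median GC content of a region was 48.5% in PRO, 46.5% in RS and 44.2% in DiffBind. Tiles of 1 kb were called alpha satellite when at least 50% of bases matched the base 1 or 2 repeat units further on. The unit was found from the sequence, as the lag of highest self-identity beside the gap, and was 171 bases. At that lag 55.1% of bases matched in the first 250 kb of the long arm and 43.6% in that of the short arm, against 27.1% and 27.2% at a lag of 201. The fingers gave the sharper signal, since 81.1% of bases in the coding sequence from the first finger on matched the base 84 positions, or 28 residues, further on. Per gene this was 76.4% to 85.1%, against 22.1% to 24.3% at a lag of 80.

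**Figure D4:**
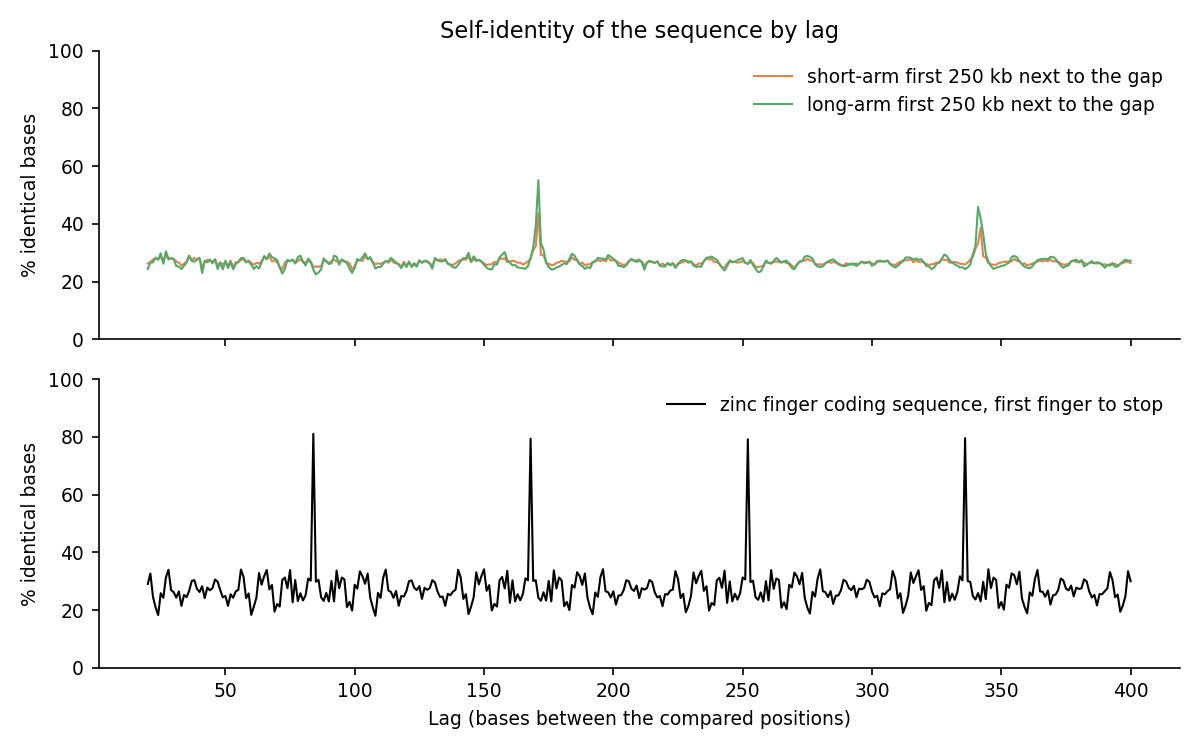
Percent of bases identical to the base a given number of positions further on (the lag, 20 to 400 bases), for the 250 kb next to the gap on each arm (top) and for the zinc finger coding sequence pooled over the 13 genes (bottom). The satellite peaks stand at 171 bases and near its double, and the finger peaks at 84 bases and its multiples.

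Alpha tiles made up 12.9% of the windows and had 10.8% of their bases in RS peaks, below the 16.7% in tiles with no tandem repeat of these kinds. Long-arm alpha tiles within 0.5 Mb of the gap had 10.9% in RS peaks and 0.6% in DiffBind regions. Those further out had nearly the same RS share, 12.4%, but 13.1% in DiffBind regions. GC-rich tiles outside alpha satellite, with at least 55% G and C, were covered to 39.0% by RS peaks and to 11.9% by PRO peaks, against 15.2% and 0.879% in the other non-alpha tiles. The 11 tiles of the 5-base repeat, not plotted apart, stood higher, at 52.7% and 45.5%. The 359 GC-rich tiles, 5.7% of the windows, held 43.8% of PRO bases, 13.9% of RS bases and 9.62% of DiffBind bases. PRO peaks of 17801 and 17601 bases, out of 98.67 kb, lay on a pair of GC-rich arrays that are near copies. The PRO values of these tiles were not computed without that pair. Whether PRO peaks favour GC-rich sequence in general was therefore not tested.

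**Figure D5:**
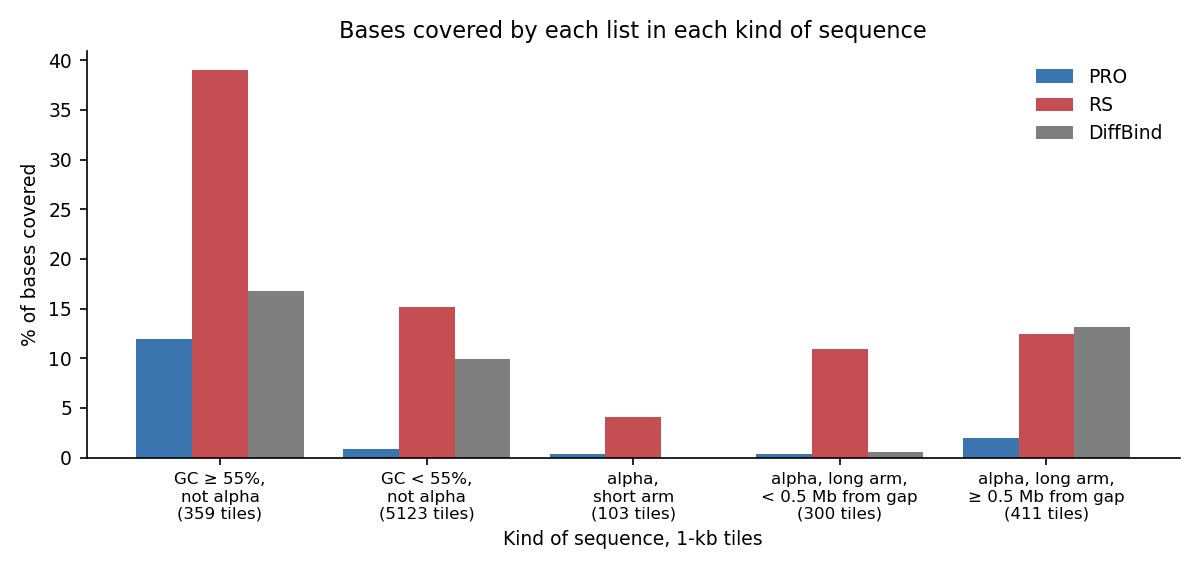
Percent of bases covered by PRO peaks, RS peaks and DiffBind regions in 1-kb tiles of 5 kinds of sequence, with the number of tiles under each kind. Of the kinds plotted, GC-rich tiles have the highest RS and PRO bars, and alpha satellite near the gap on the long arm has an RS bar of 10.9% beside a DiffBind bar of 0.6%.

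A pair of GC-rich arrays accounted for much of the PRO signal. The peak at chr7:56879201-56897001 was 17801 bases long with 66.9% GC, and the one at chr7:63210001-63227601 was 17601 bases long with 67.3% GC. RS peaks covered 65.2% of the first and 85.2% of the second, and DiffBind regions covered none of either. Each was a tandem array, with units of 1838 bases in the first (47.6% of bases matched at that lag) and 1823 bases in the second (71.2%), against medians of 29.4% and 29.5% over all lags up to 3000. The 2 arrays were inverted copies of each other. All 89 pieces of 200 bases from the short-arm array aligned better to the opposite strand of the long-arm array, with a median identity of 97.5% and a range from 73.5% to 100.0%. The first array lies in the long non-coding RNA gene ENSG00000279072 and the second in no annotated gene. Repeated 75-base sequences took up 59.7% and 71.5% of the arrays, and the part of shared reads in these peaks was not tested.

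The satellite peaks shown above differed from each other in DiffBind overlap, but they are single peaks and do not stand for their kinds. Long-arm alpha tiles 0.5 Mb and more from the gap had 13.1% of bases in DiffBind regions. Tiles of the 5-base repeat had 68.6% in the 7 short-arm tiles and 0.0% in the 4 long-arm tiles. The RS peak at chr7:57543401-57556801, 13401 bases long and the longest of the short arm, held the motif GGAAT 662 times on the plus strand and 1 time on the minus strand, or 49.5 times per kb on both strands together against 2.23 per kb over the windows. PRO peaks covered 47.8% of it and a DiffBind region covered all of it. Only 1.04% of its positions started a repeated 75-base sequence. The RS peak at chr7:61967001-61978801, 11801 bases of alpha satellite type, began at the edge of an assembly gap and matched itself at 66.8% of bases at a lag of 340. PRO peaks covered 76.3% of it and no DiffBind region touched it. The longest RS peak of the windows, 13601 bases at chr7:63210601-63224201, lay wholly on the long-arm GC-rich array.

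Long RS peaks without a PRO peak were of yet another kind. The 12401-base peak at chr7:63552001-63564401 lay over GUSBP6, a pseudogene related to GUSB, and inside the longest DiffBind region of the windows, chr7:63547401-63564801. The 10201-base peak at chr7:63344801-63355001 also lay inside a DiffBind region, and both overlapped no PRO peak and had 0.698% and 6.35% repeated sequence. On the short arm, the 10601-base peak at chr7:57242601-57253201 over GUSBP10 overlapped neither a PRO peak nor a DiffBind region, and so did the peaks of 9001 bases at chr7:57705401-57714401 and 8601 bases at chr7:56556201-56564801. Among the longest RS peaks, those with no PRO peak were therefore found both inside and outside the DiffBind list.

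Repeated sequence was measured over all positions, as 75-base sequences, about the length of a read, that occur more than once in the genome on either strand. Such sequences began at 24.2% of the positions in the windows. They made up 51.5% of positions in PRO peaks, 22.4% in RS peaks, 15.4% in DiffBind regions and 24.6% outside all lists. PRO peaks thus held the largest share of repeated sequence of the 3 lists, and RS peaks were close to the windows as a whole. Of the repeated positions on the short arm, 67.7% had a copy in the long-arm window and 19.6% on another chromosome. When only positions of unique sequence were counted, a measure chosen after seeing the data, RS peaks covered 16.4% and PRO peaks 1.0%, a 16.4-fold ratio.

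Genes of the machinery that places or reads H3K9me3 and H4K20me3 were examined as a list of 20, wherever they lie. RS peaks overlapped 4 of them, DiffBind regions 4 and PRO peaks 1, which is near the 21.0%, 18.3% and 3.97% of all coding genes. ZNF274, a KRAB zinc finger protein that directs H3K9me3 to 3′ ends of zinc finger genes, was covered to 93.5% by RS peaks, to 75.8% by DiffBind regions and to 25.6% by PRO peaks. The other RS overlaps were small, with 3.06% of ATF7IP, 1.04% of SETDB1 and 0.285% of ATRX. KMT5B and KMT5C, which write H4K20me3, and TRIM28 overlapped no region of any list.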

How the data were processed

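H4K20me3 ChIP-seq was performed in 4 IMR90 samples, 2 per group. Per the labels, the authors used CASAVA 1.8.2, Trim Galore 0.3.0, Bowtie2 2.1.0, Picard 1.98, SICER 1.1 and DiffBind 1.8.3. Reads were single-end and the build was hg19. The authors called peaks in 200-bp windows against histone H4, and kept the intersection of both antibodies within a group. The deposited lists hold start and end positions in bases, with no other value. How reads with several equal placements were treated is not given in the sources used here. Both edgeR and DESeq2 are named by the authors for the DiffBind step, and their description gives more DiffBind regions than the list analysed here, so DiffBind values hold for this list. Read depth per sample was not used here, and the precision of a peak's presence is unknown.

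Positions were analysed in Python 3 with numpy and pandas. Overlap was counted from 1 shared base. Coordinates are 1-based, and genes came from GENCODE release 44 on GRCh37. Zinc finger genes were coding genes with symbols starting ZNF, ZFP, ZSCAN or ZKSCAN and a digit. All of these in the windows were named, other coding genes from 10% of the body, and the 5 longest regions per list and arm were candidates. The longest RS peak over a coding exon, at the start of ZNF727, held no finger, so the fingers shown are those of the gene with the most fingers in RS peaks. Overlap, merging, self-identity and repeat counting were checked on simulated data. Members and gene lists were chosen with earlier results of these data known. No test between groups was made.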

Additional observations from a re-analysis of the deposited data

How the results depend on the processing

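No paired analysis was possible because the lists hold 1 merged set of peaks a group and no value per sample, and for the same reason leaving out each antibody in turn was not run. Of the 69 alternative values, 34 stayed within the 95% binomial interval of the value in the report, or within 1.5 times for a count of genes. The intervals cover counting error only. For covered bases they took each 200 bases as a separate count. Neighbouring stretches of a peak are not independent, so those intervals are too narrow and the tally is a rough guide. RS stayed above PRO in number and length under every alternative run.

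Keeping only regions of at least 1000 bp gave a ratio of peak number of 15.3, shares of bases of 12.9% (RS), 1.24% (PRO) and 9.25% (DiffBind), 72.3% of DiffBind regions over an RS peak, and 1 zinc finger gene with a PRO peak. Merging regions within 1000 bp gave a ratio of number of 7.63 and of covered length of 11.4, with 18.8% in RS and 10.6% in DiffBind. Without the outer 1 Mb of the long arm the shares were 18.9%, 1.81% and 11.6% for RS, PRO and DiffBind. The short arm alone gave a length ratio of 8.33 and shares of 22.3%, 2.68% and 11.7%, and the long arm alone gave 11.6 and 14.0%, 1.2% and 9.36%. An overlap of 50% of both regions left 20.3% of PRO peaks and 69.1% of DiffBind regions over an RS peak. Requiring 10% of the gene body left 0 zinc finger genes with a PRO peak.

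Leaving out every region that holds a repeated 75-base sequence kept 12 PRO peaks, 243 RS peaks and 74 DiffBind regions. It gave ratios of 20.2 in number and 44 in length, shares of 3.5% (RS), 0.0796% (PRO) and 1.97% (DiffBind), 25% of PRO peaks and 85.1% of DiffBind regions over an RS peak, and 0 zinc finger genes with a PRO peak. Longer regions are more likely to hold such a sequence, so this removes them first. Counting unique bases instead, which was added after seeing the data, gave a length ratio of 16.4 and shares of 1.0% for PRO and 11.1% for DiffBind. PRO values therefore depend on repeated sequence more than RS values do, and with 69 PRO peaks in the windows single long peaks weigh on them. Depth limits what was called in each state and was not used here.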
